A study of Mus musculus with 2 samples.

Results

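The AP-1 and immediate early genes described here are 10 mouse genes: Fos, Fosb, Fosl1, Fosl2, Jun, Junb, Jund, Egr1, Ier2 and Myc. Their members in the data are the listed peaks that overlap one of these genes or lie within 5 kb of it, by the RefSeq gene coordinates of GRCm38. This rule took 9 of the 12333 peaks of the ALKBH5-FLAG library and 3 of the 3378 peaks of the IgG library, and it used only positions. Both libraries came from Hepa1-6, a hepatoma line of the mouse, after overnight infection with an adenovirus carrying ALKBH5 with a FLAG tag. ALKBH5 is a demethylase that takes the methyl group off N6-methyladenosine in RNA. In CUT&Tag, an antibody brings the transposase Tn5 to chromatin and the DNA cut around it is sequenced. The ALKBH5-FLAG reaction was set against an IgG reaction, whose antibody has no intended target. The treatment tag of the IgG sample reads ALKBH6-FLAG while its protocol names the ALKBH5 virus, and the series text speaks of primary hepatocytes while both samples are labelled Hepa1-6. Both libraries came from infected cells, so no uninfected cells enter any comparison. With 1 library per antibody there is no test between ALKBH5 and IgG, and each difference is between these libraries.

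AP-1 is a family of dimeric transcription factors in which a FOS protein pairs with a JUN protein, or JUN proteins pair with each other, through a leucine zipper. Immediate early genes are transcribed within minutes of a growth factor, cytokine or stress signal, without new protein synthesis, as MAP kinases act on factors already bound at their promoters. In liver, AP-1 and MYC are known for their induction at the onset of regeneration, and JUN is known as a factor in hepatocyte survival and liver tumour formation. Their messenger RNAs are short-lived, and the MYC transcript is among those on which N6-methyladenosine has been studied.

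An ALKBH5 peak was listed at 8 of the 10 genes, namely Fos, Fosl1, Fosl2, Jun, Junb, Jund, Egr1 and Ier2. Fosb and Myc had none. An IgG peak was listed at 3 genes, Fosb, Jund and Ier2, so 6 genes had an ALKBH5 peak without an IgG peak, 2 had both and Fosb had an IgG peak alone. Over all 21883 protein-coding genes, 43.2% had an ALKBH5 peak under the same rule and 12.6% had an IgG peak. An ALKBH5 peak without an IgG peak was found at 32.5% of genes, peaks of both lists at 10.7%, an IgG peak alone at 1.91%, and no peak of either list at 54.9%. Short genes offer a smaller window, and among the 12240 protein-coding genes no longer than Fosl2, the longest of the 10 at 21369 bp, the shares were 35.4% for ALKBH5 and 9.22% for IgG. Every other gene of the 10 was 1522 to 8241 bp long, so that ceiling matches their length only loosely. The count was sensitive to the strength asked of a peak. At a fold of 5 or more, 4 of the 10 genes had an ALKBH5 peak, Fosl2, Jun, Jund and Egr1, near the 34.9% of all genes under that setting. With a −log10 q of at least 5 it was 5 of 10, Fosl2, Jun, Junb, Jund and Egr1, beside 26.7% of all genes. Where a peak had to overlap the gene itself, it was also 5 of 10, Fos, Fosl1, Jun, Jund and Egr1, beside 36.1%. A gene outside these counts has no listed peak, which is not the same as no fragments.

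**Figure D1:**
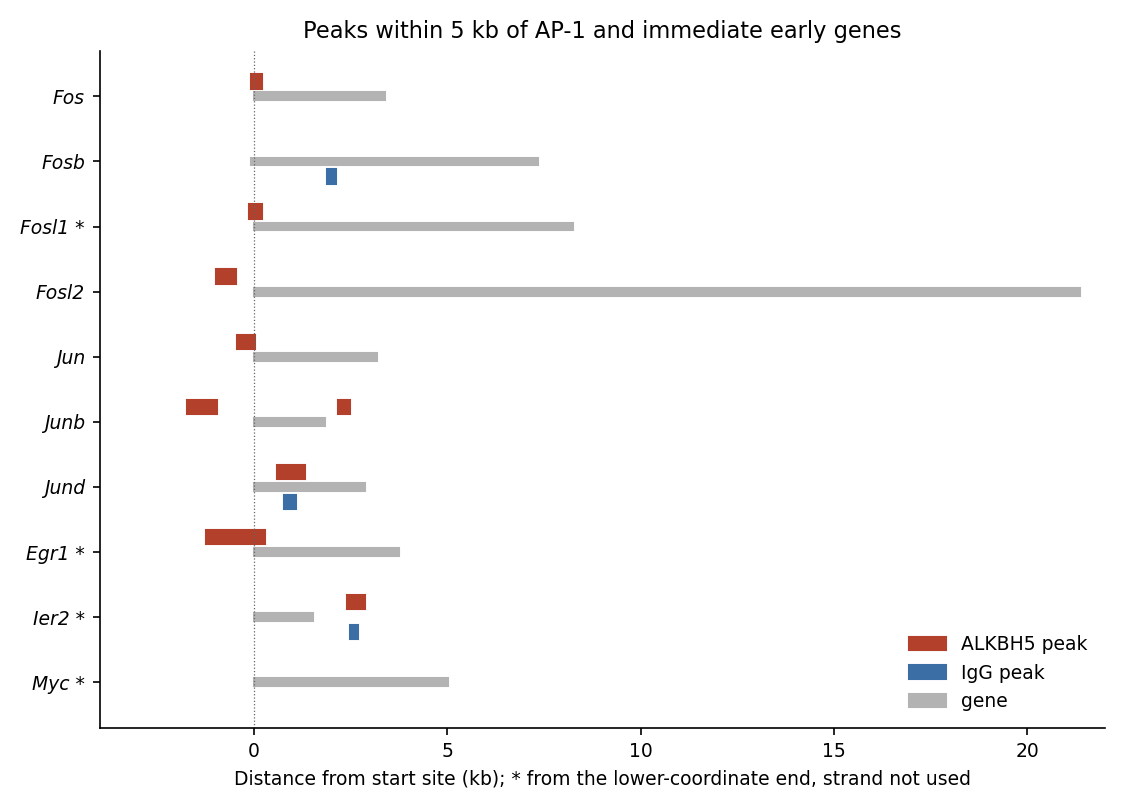
Map of the peaks within 5 kb of each gene, with distance in kb on the horizontal axis (from the start site, or for genes marked with an asterisk from the lower-coordinate end) and the genes in rows. Red bars are ALKBH5 peaks, blue bars IgG peaks and grey bars the genes; Fosb has a blue bar alone and Myc has none.

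The promoters of Fos and Jun are printed because they were the promoter windows among these genes that an ALKBH5 peak touched. RefSeq promoter windows of GRCm38.p6, running from 250 bases before the start site to 50 bases into the gene, were matched by symbol for 6 of the 10 genes, Fos, Fosb, Fosl2, Jun, Junb and Jund. Across the 32851 windows of the table, 19.1% were touched by an ALKBH5 peak and 3.26% by an IgG peak. No IgG peak touched any of the 6. The Fos window lies at chr12:85473640-85473939 on the plus strand and the Jun window at chr4:95052173-95052472 on the minus strand. Capitals mark matches to GGGCGG, the GC box bound by SP1, which reads CCGCCC when it lies on the other strand, and to CCAAT, the box bound by NF-Y.
Fos: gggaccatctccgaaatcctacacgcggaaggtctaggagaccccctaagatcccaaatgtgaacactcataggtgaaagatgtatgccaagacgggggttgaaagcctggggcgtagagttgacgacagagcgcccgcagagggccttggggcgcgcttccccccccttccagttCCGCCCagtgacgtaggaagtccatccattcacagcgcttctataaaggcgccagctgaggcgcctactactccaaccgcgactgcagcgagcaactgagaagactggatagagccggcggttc
Jun: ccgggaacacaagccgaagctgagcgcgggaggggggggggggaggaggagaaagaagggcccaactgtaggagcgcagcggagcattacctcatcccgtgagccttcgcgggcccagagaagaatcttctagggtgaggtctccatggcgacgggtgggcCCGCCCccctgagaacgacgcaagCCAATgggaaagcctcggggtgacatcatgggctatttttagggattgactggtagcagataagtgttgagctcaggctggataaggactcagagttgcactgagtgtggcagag

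Counting the start site as 0 and upstream bases as negative, the ALKBH5 peak at Fos ran from base -86 to base 193 and took in the last 136 bases of the printed window. The GC box of Fos, at -74 to -69, lay inside that peak. At Jun the peak ran from -449 to 32 and took in 283 of the 300 bases, with the GC box at -89 to -84 and the CCAAT box at -65 to -61 inside it. Other motifs were searched on both strands as well. The AP-1 site, TGACTCA, was present in 5.2% of all windows, in 3.26% of those touched by an ALKBH5 peak and in 5.66% of the others. The cyclic AMP response element, spelled TGACGTCA, was present in 1.79% of all windows, in 3.67% of those touched and in 1.35% of the others. The E-box bound by MYC and MAX, spelled CACGTG, was present in 7.15%, in 11.8% and in 6.07%. The CArG box of serum response factor was present in 1.63% of all windows, in 1.07% of those touched and in 1.76% of the others. None of the 6 windows held an exact match to any of these 4, and bases more than 250 before the start site were not searched. In these windows no match of one motif overlapped a match of another, and a window without a match may still hold a variant of the site. The GC box was found in the windows of Fos, Fosb, Fosl2 and Jun, and in 35.7% of all windows. Among windows touched by an ALKBH5 peak 74.2% held it, against 26.6% of windows without one. The CCAAT box was found in the windows of Jun and Junb and in 37.4% of all windows, in 41.9% of those touched and in 36.4% of the others. The GC content was 58.7% in the Fos window and 60.0% in the Jun window. It was 64.7% for Fosl2, 65.3% for Junb, 68.3% for Fosb and 46.7% for Jund, where the median was 63.3% over windows touched by an ALKBH5 peak and 50.3% over the others.

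Among the FOS proteins, which cannot pair with each other and need a JUN partner, Fos itself had 1 ALKBH5 peak at chr12:85473804-85474083, across its start site. It had a pileup of 10 fragments at its summit (95% exact Poisson interval 4.8 to 18.4) and a fold enrichment of 4.33 over the local background. Its summit lay 74 bp downstream of the start site. The pileup was near the middle of the list, where the median was 9 fragments, and the fold was at percentile 14.2 of the list, whose median was 5.63. No IgG peak was listed within 50 kb of Fos. A taller ALKBH5 peak stood 8518 bp above the higher-coordinate end of the gene, which is its 3′ side, and stacked 15 fragments at a fold of 7.41.

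Fosl1, which encodes FRA1, had the weakest of these ALKBH5 peaks by −log10 q, 2.01 against 17.6 for the strongest. The peak lay at chr19:5447569-5447903 across the lower-coordinate end of the gene. It stacked 9 fragments (4.12 to 17.1), and its fold of 3.62 was at percentile 3.41 of the list. Fosl2, which encodes FRA2, had a peak at chr5:32135488-32135993 that ended 479 bp before the start site. Its pileup was 17 (9.9 to 27.2) and its fold 6.52, at percentile 71.0. In this family, then, the peaks at Fos and Fosl1 crossed a gene end and the peak at Fosl2 stood off it.

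Fosb was the FOS gene without an ALKBH5 peak. Its nearest ALKBH5 peak lay 16844 bp above the higher-coordinate end and stacked 8 fragments. The IgG peak of Fosb, at chr7:19307918-19308158, lay inside the gene with its summit 2010 bp downstream of the start site. It had a pileup of 8 (3.45 to 15.8) and a fold of 5.71, at percentile 68.0 of the IgG list.

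All 3 JUN genes had an ALKBH5 peak. Jun, the AP-1 subunit phosphorylated by the JNK kinases, had 1 at chr4:95052190-95052671 with a pileup of 11 (5.49 to 19.7) and a fold of 6.25. Its summit lay 77 bp upstream of the start site. The same peak overlapped the lower-coordinate end of Junos, a long noncoding RNA gene beside Jun, so it cannot be assigned to Jun alone. No other ALKBH5 peak was listed within 50 kb of Jun, and the next lay 109075 bp away, in or within 1 kb of Junos. No IgG peak was listed within 50 kb.

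Junb, which encodes a JUN protein known to restrain JUN activity on some targets, was the gene of the 10 with more than 1 ALKBH5 peak, a state shared by 11.2% of protein-coding genes. Neither peak touched the gene. The taller, at chr8:84979698-84980488, lay 950 to 1740 bp upstream of the start site, with a pileup of 27 (17.8 to 39.3) and a fold of 3.57. The other, at chr8:84976270-84976572, began 337 bp beyond the 3′ end, with a pileup of 20 (12.2 to 30.9) and a fold of 3.04. Both peaks were thus tall, at percentiles 96.9 and 91.8 of pileup, and low in fold, at percentiles 3.18 and 0.377. The peak beyond the 3′ end also lay 1459 bp from Prdx2, a peroxiredoxin gene, and the upstream peak lay 4887 bp from it. The nearest IgG peak was 129669 bp from Junb.

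Jund, which encodes the JUN protein known for its presence in resting cells, had peaks in both lists at the same place inside the gene. The ALKBH5 peak, at chr8:70698328-70699061, had a pileup of 31 (21.1 to 44.0) and a fold of 5.63. The IgG peak, at chr8:70698498-70698833, had a pileup of 15 (8.4 to 24.7) and a fold of 8.55. The fragments stacked were thus more in the ALKBH5 library and the fold was higher in the IgG library. No scaling of the pileups to depth is stated, and the sources used here do not say what the folds were computed against, so neither ratio is read as ALKBH5 over IgG. The ALKBH5 summit lay 1083 bp and the IgG summit 927 bp downstream of the start site. Another gene, Iqcn, also lay within 5 kb, 2260 bp from the ALKBH5 peak and 2488 bp from the IgG peak. The IgG peak was at percentile 91.5 of fold in its list, and the ALKBH5 peak was at percentile 50.1 in its own.

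Of the early genes outside AP-1, Egr1, a zinc finger factor induced through serum response elements, had the tallest ALKBH5 peak of the 10 genes. It lay at chr18:34859961-34861478 across the lower-coordinate end and stacked 40 fragments (28.6 to 54.5), and had a fold of 6.66 and a −log10 q of 17.6. At 1518 bp it was at percentile 99.9 of width in the ALKBH5 list, where the median width was 382 bp. The nearest IgG peak was 390713 bp away. A tall ALKBH5 peak thus stood here with no IgG peak in the neighbourhood. The median pileup was 9 over the ALKBH5 list and 5 over the IgG list, and read totals are not given, so the lack of an IgG peak and a lower depth of the IgG library cannot be told apart.

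Ier2, an early gene that encodes a nuclear regulator, had peaks of both lists beyond its higher-coordinate end and none over the gene. The ALKBH5 peak, at chr8:84663728-84664205, lay 876 bp from the gene, with a pileup of 16 (9.15 to 26.0) and a fold of 4.11. The IgG peak, at chr8:84663818-84664015, lay within it, with a pileup of 8 (3.45 to 15.8) and a fold of 5.38. As at Jund, the pileup was higher in the ALKBH5 library and the fold was higher in the IgG library. Their summits were 236 bp apart, and 156 bp apart at Jund.

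Myc, the growth-promoting factor that pairs with MAX, had no peak in either list. Its nearest ALKBH5 peak was 48784 bp above the higher-coordinate end, at the noncoding gene Pvt1, and stacked 10 fragments at a fold of 4.10. The nearest IgG peak was 116303 bp away, also at Pvt1, with a pileup of 3.

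**Figure D2:**
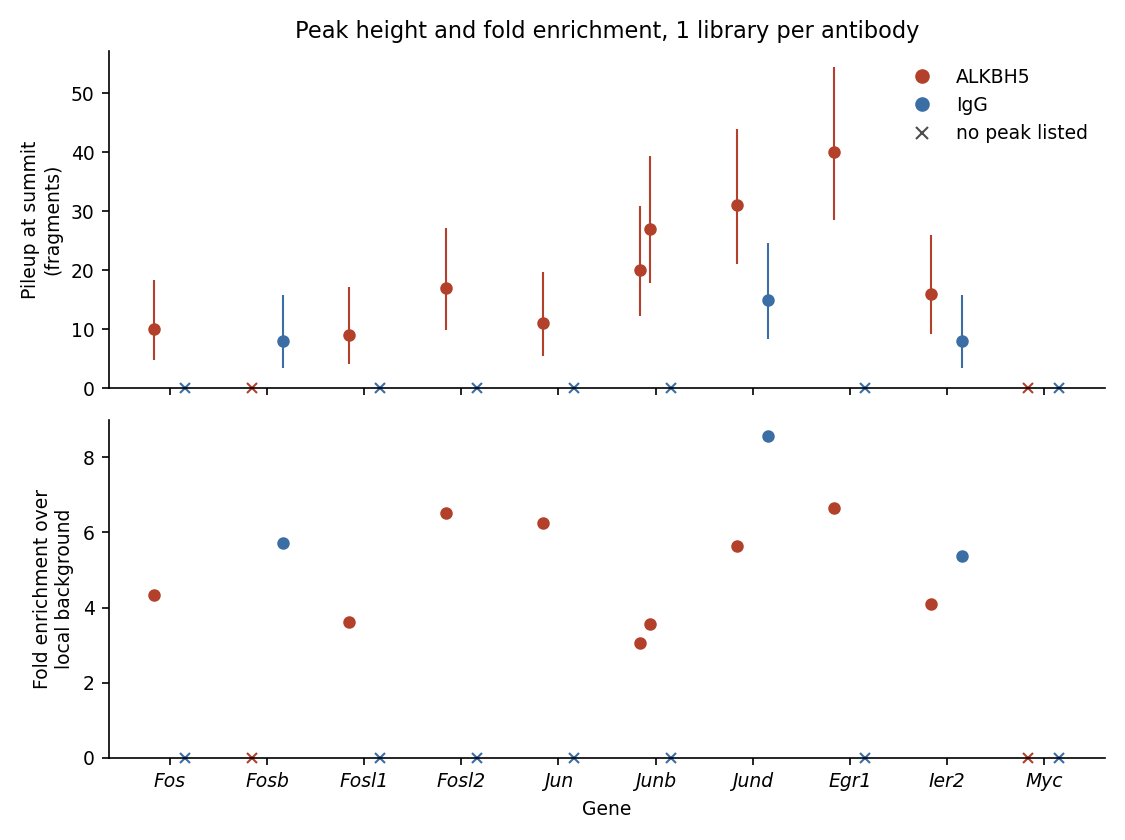
Pileup at the summit (upper panel, fragments, bars are 95% exact Poisson intervals that cover counting error only) and fold enrichment (lower panel) of each peak at the 10 genes, ALKBH5 in red and IgG in blue. Crosses on the base line mark a gene with no listed peak, not a value of 0; Egr1 has the tallest ALKBH5 peak at 40 fragments, and at Jund and Ier2 the blue point lies below the red in pileup and above it in fold.

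Of the 9 ALKBH5 peaks, 2 overlapped an IgG peak by at least 1 bp, those at Jund and Ier2, where 14.9% of the whole ALKBH5 list did so and 15.2% of the ALKBH5 peaks within 5 kb of a protein-coding gene. All 3 IgG peaks can be placed likewise, with 2 overlapping an ALKBH5 peak and the Fosb peak not, where 54.6% of the IgG list overlapped an ALKBH5 peak. The 2 ALKBH5 peaks that overlapped IgG had pileups of 31 and 16. The 7 that did not had pileups of 9 to 40.

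None of the pileups at these genes fell below the list's median. Those at Fosl1, Fos and Jun were nearer the middle of the list, at percentiles 51.2, 58.9 and 65.3, and the others were taller. The local background implied by the folds was high relative to the list. The fold of a peak is its pileup over a local background, with 1 added to each, so the background can be computed from the deposited values. Which fragments entered it is not stated, so it may hold fragments of the peak itself and of its neighbours. Whether the 2 Junb peaks raised the background of each other was not tested. The implied background was 0.92 fragments at Jun, 1.54 at Fos, 1.76 at Fosl1 and at Fosl2, and 3.14 at Ier2. It reached 4.68 at Jund, 5.16 at Egr1, and 5.9 and 6.84 at the 2 Junb peaks, where the median over the list was 0.68. All 9 peaks lay above that median, and 8 of the 9, all but that at Jun, lay above the 85th percentile. Of the pileups, 8 were above the list's median of 9 and that at Fosl1 equalled it. The median pileup was 17 over the 9 peaks, while their median fold was 4.33 against 5.63 for the list and 5.74 for ALKBH5 peaks within 5 kb of any protein-coding gene. The fold of 5 of the 9 peaks was below the list's median. Over the 5 peaks that overlap the gene itself the median fold was 5.63, equal to that of the list. Folds below the list's median stood over the gene at Fos and Fosl1, and beside it at Ier2 and at both Junb peaks. The peak beside Fosl2 was above that median. With so few peaks the low median over 9 is not assigned to either kind.

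Background differed with height in the list, so each peak was also set beside the ALKBH5 peaks of exactly the same pileup. The background was above the median of such peaks in 9 of 9 cases. For the Junb peak with a pileup of 20 it was 5.9, against a median of 1.68 over the 164 peaks of that height. For Ier2 it was 3.14, against a median of 1.38 over 291 peaks, and for Fosl1 1.76, against 0.7 over 1019. The excess was small at Jun, 0.92 against 0.88 over 739 peaks, and at Egr1, 5.16 against 4.72 over only 6 peaks. At equal pileup a higher background and a lower fold are the same observation.

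**Figure D3:**
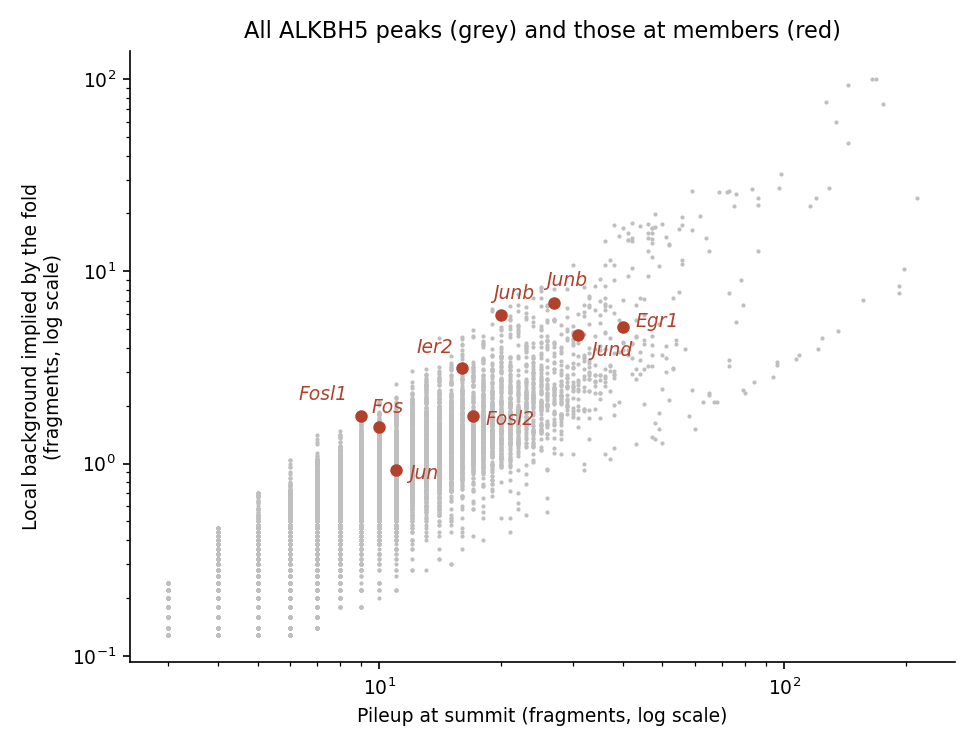
Pileup at the summit (horizontal, fragments, log scale) against the local background implied by the fold (vertical, fragments, log scale) for all 12333 ALKBH5 peaks in grey and the 9 at these genes in red. Most red points lie towards the upper edge of the grey cloud at their height, Junb most clearly, while Jun and Egr1 sit near its middle.

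Where the start site was known, the ALKBH5 summits fell into 2 kinds. At Fos and Jun they lay 74 bp downstream and 77 bp upstream of it. At Fosl2 the summit lay 787 bp upstream, at Junb the nearer summit lay 1282 bp upstream and at Jund the summit lay 1083 bp downstream. Across the 7616 protein-coding genes with a start site in the promoter table and an ALKBH5 peak within 5 kb, 69.7% had their nearest summit within 500 bp of the start site, and 6.6% had it over 500 bp and up to 1500 bp away. The median distance was 237 bp. Of these 5 genes, 2 had their nearest summit within 500 bp and 3 had it over 500 bp and up to 1500 bp away. For the 5 genes only the first listed start site was used, while over all genes the nearest of all listed start sites counted. Counting more start sites can only bring a summit nearer, so the shares over all genes are not a like measure. The limits of 500 and 1500 bp were chosen with the values known, and with 5 genes no more than this description is drawn.

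**Figure D4:**
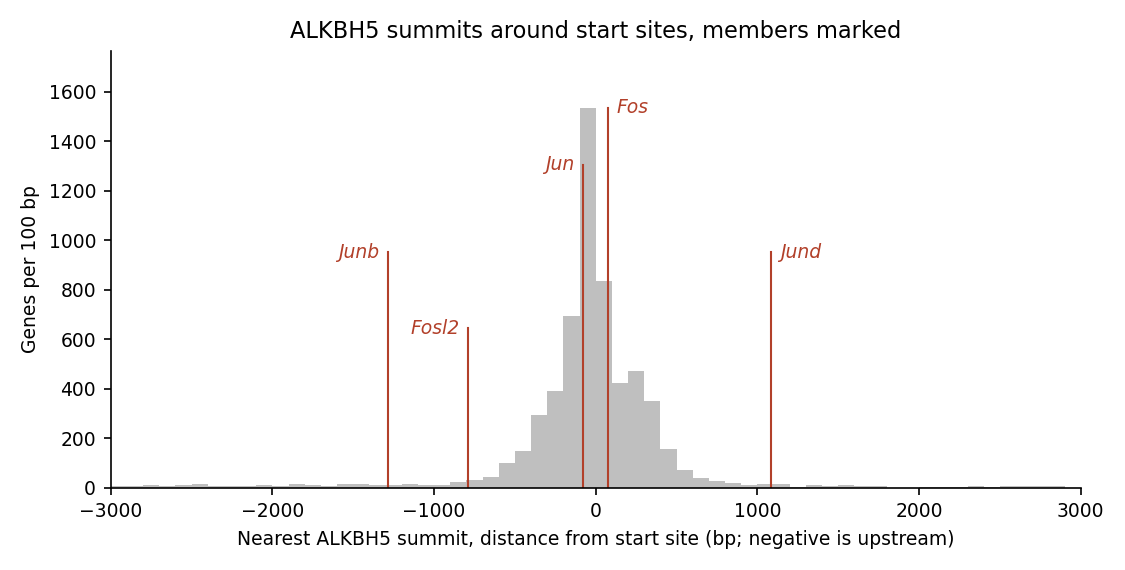
Number of genes per 100 bp (vertical) by the distance of the nearest ALKBH5 summit from the start site (horizontal, bp, negative is upstream) for genes with a peak within 5 kb; heights of the red lines have no meaning. The lines for Fos and Jun stand in the central mass and those for Fosl2, Junb and Jund outside it. Lines use the first listed start site of each gene, and the bars use the nearest of all listed.

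Genes that work with AP-1 were counted under the same 5 kb rule, against the shares of 43.2% for ALKBH5 and 12.6% for IgG over all protein-coding genes. In 5 lists together, 59 of 73 genes (80.8%) had an ALKBH5 peak and 16 (21.9%) an IgG peak, beside 80.0% and 30.0% for the 10 genes themselves. The ALKBH5 shares were less alike under stricter settings. At a fold of 5 or more, 47 of the 73 had an ALKBH5 peak, beside 4 of the 10 and 34.9% of all genes. With a −log10 q of at least 5 it was 42 of 73, and with overlap of the gene itself 49 of 73, beside 5 of 10 in each case. The bZIP proteins that pair with FOS or JUN or share their sites had an ALKBH5 peak in 13 of 15 cases. They were led by Atf7 with a fold of 11.2, Atf4, the effector of the integrated stress response, with 8.59, and Creb1, the cyclic AMP responsive factor, with 8.33. IgG peaks stood at 5 of the 15, Atf2, Atf7, Creb1, Crem and Mafk, and all 5 also had an ALKBH5 peak.

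Of 17 MAP kinases and serum response factors, which act on immediate early promoters, 15 had an ALKBH5 peak. Map2k7, an activator of JNK, had a fold of 8.76, Mapk9, which encodes JNK2, 7.75, and Map2k4, the other JNK activator, 7.38. Srf, the factor that binds the CArG box, had 2 ALKBH5 peaks, the higher with a fold of 5.06. Only Mrtfa, a coactivator of SRF, had an IgG peak in this list, with a pileup of 4, and it had no ALKBH5 peak.

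Other immediate early genes had an ALKBH5 peak in 19 of 24 cases and an IgG peak in 4, at Nr4a2, Nr4a3, Klf2 and Klf10. The highest folds were 8.52 at Sgk1, a kinase induced by serum and glucocorticoid, 7.87 at Ccn2, a matricellular growth factor, and 7.48 at Klf2, a zinc finger factor. The dual specificity phosphatases, which switch MAP kinases off again, had an ALKBH5 peak in 4 of 7 cases, at Dusp8 with a fold of 8.18, Dusp10 with 7.62, Dusp5 with 5.97 and Dusp1 with 4.55. IgG peaks stood at Dusp5, Dusp8 and Dusp10, and the IgG fold at Dusp10 was 12.3. In the MYC and MAX network, counted without Myc itself, 8 of 10 genes had an ALKBH5 peak and Mycn and Mxi1 had none. Mga had a fold of 9.26, Mxd1 7.35 and Mxd3 6.74, all 3 being partners of MAX. IgG peaks stood at Mxd3, Mnt and Mxi1. Members of these lists were not chosen at random from all genes, and their shares are given as counts without a test.

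**Figure D5:**
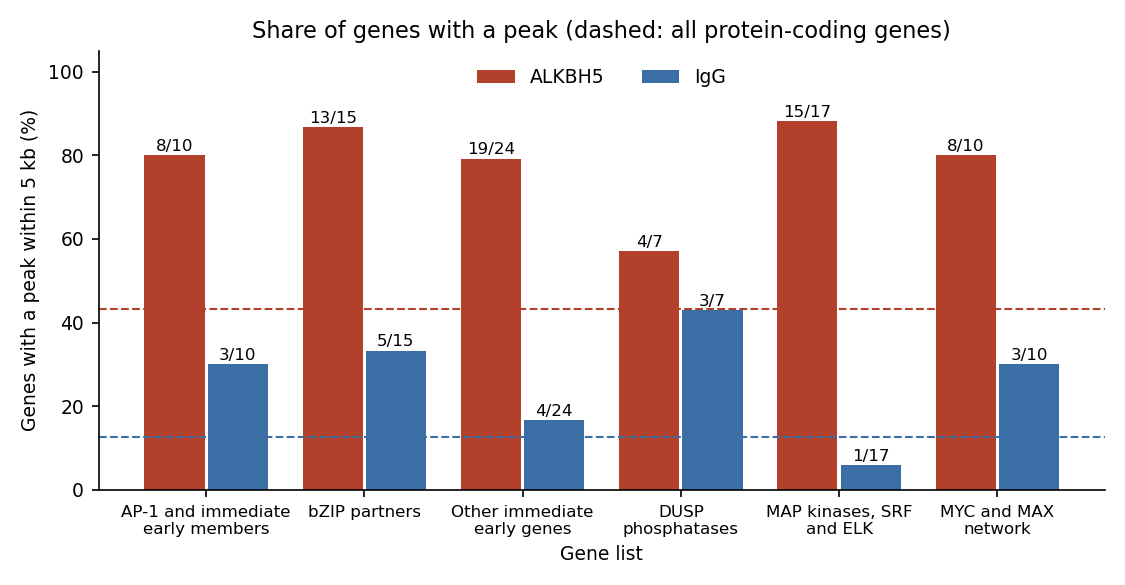
Percentage of genes with a peak within 5 kb (vertical) in the 10 AP-1 and immediate early genes and 5 related lists, ALKBH5 in red and IgG in blue, with counts above the bars. Dashed lines are the shares over all protein-coding genes, 43.2% for ALKBH5 and 12.6% for IgG.

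The hepatocyte label was checked on 11 defining markers, of which 5 (45.5%) had an ALKBH5 peak (Apoa2, Afp, Foxa2, Foxa3 and Trf) and 1 (9.09%), Foxa3, an IgG peak. Both shares were near the 43.2% and 12.6% of all protein-coding genes. Alb, Ttr, Apoa1, Apob, Hnf4a and Serpina1a had no peak in either list. A peak list of an overexpressed protein does not measure expression, so this neither identifies the cells nor questions their label.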

How the data were processed

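The deposited files list the peaks of 1 ALKBH5-FLAG and 1 IgG library, per library and not pooled. Tools listed in the submitters' processing notes are MACS2, Bowtie2 2.2.9, R 3.4.1 and SAMtools 1.3.1, and the build is GRCm38 (mm10). The sources used here do not say what each tool did, with which settings, or whether IgG served as control. Per the file headers, the authors' pileup is a coverage signal and their fold enrichment a ratio. The deposited −log10 p and −log10 q columns had lost their headers and were identified by place in the MACS2 layout. The Poisson tail computed for each pileup at its implied background matched the deposited −log10 p within 1% plus 0.01 for 100% of ALKBH5 and 99.5% of IgG peaks. Read totals are not given, so depth is unknown. Summits are the tallest points of peaks, and Poisson intervals cover counting error only. The intervals take no account of the choice of the tallest point or of the threshold a peak passed to be listed.

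Coordinates are 1-based. Genes were RefSeq genes of GRCm38.p6 on chromosomes 1 to 19, X and Y, all 10 members and all 73 related symbols matched, and the start and strand came from the RefSeq promoter table where it had them. Peaks were joined to genes in Python 3.11.15 with pandas 2.3.3, and the join was tested on simulated data. All 10 genes are described. In each related list the 3 genes of highest ALKBH5 fold and every gene with an IgG peak are named, with Srf, Dusp1, Mycn and others named after their values were seen. One further gene was left out of the hepatocyte markers and is not reported here. Members and lists were chosen with earlier results of these data known. Alternatives were windows of 0, 1 and 10 kb, a −log10 q or a fold of 5 or more, placing a peak by its summit, and an overlap of at least 50% of each peak.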

Additional observations from a re-analysis of the deposited data

How the results depend on the processing

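The counts were unchanged with a 1 kb window and with peaks placed by their summit, except for the related genes at 1 kb (56 with ALKBH5 and 15 with IgG). With a 10 kb window the same 8 genes had an ALKBH5 peak and the same 3 an IgG peak (47.4% and 15.0% of all genes), Fos had 2 ALKBH5 peaks, and 60 and 19 related genes had an ALKBH5 and an IgG peak. The median fold of ALKBH5 peaks at the 10 genes, 4.33, was 5.63 for peaks overlapping the gene and 4.98 with a 10 kb window. Of 60 counts of ALKBH5 peaks per gene and setting, 48 stayed within 1.5 times. These include Fosb and Myc, which had 0 in each setting and to which a stricter setting could not add a peak. The 48 is therefore not a measure of robustness. With peaks required to overlap the gene itself, 5 of the 10 genes had an ALKBH5 peak (36.1% of all genes), and 1 ALKBH5 peak overlapped an IgG peak. With a −log10 q of at least 5, 5 genes had an ALKBH5 peak (26.7% of all genes), 1 gene an IgG peak and 7 related genes an IgG peak (3.37% of all genes), and 1 ALKBH5 peak overlapped IgG. At a fold of 5 or more, 4 genes had an ALKBH5 peak (34.9% of all genes), namely Fosl2, Jun, Jund and Egr1. At that fold 3 had no IgG peak, 1 ALKBH5 peak overlapped IgG, and 10 related genes had an IgG peak (6.44% of all genes). With at least 50% of each peak shared, 0 of the 9 ALKBH5 peaks overlapped an IgG peak. At Jund and Ier2 the IgG peak lay wholly inside the ALKBH5 peak but covered less than 50% of it. The widths were 336 bp in 734 bp at Jund and 198 bp in 478 bp at Ier2. The share of the whole ALKBH5 list under that overlap rule is not given here. The stricter windows and thresholds keep fewer peaks by construction, and the last setting changes the overlap alone. No paired analysis was possible because each antibody had 1 library, and none could be left out. With fragment counts of 8 to 40 each value is no more precise than the intervals printed, and no read totals set the depth of either library.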

Other observations

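Of the 24 other immediate early genes, 5 had no peak in either list. These were Egr2, Egr3 and Egr4, relatives of Egr1, and Arc and Npas4, best known from neurons. They were named after their values were seen. No listed peak is common, being the state of 54.9% of all protein-coding genes. Among the phosphatases, Dusp2, Dusp4 and Dusp6 had no peak in either list. Peaks between 5 and 50 kb from the 10 genes numbered 6 in the ALKBH5 list at Fosb and at Fosl1, 3 at Jund, 2 at Fos, Junb, Egr1 and Ier2, 1 at Fosl2 and Myc, and 0 at Jun. Over all protein-coding genes the median was 1, with 0 at 48.0% of genes and 6 or more at 1.04%.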
